A study of Mus musculus with 3 samples.

Results

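The interleukin 6 family signalling described here is a set of 9 genes with LIF, IL6 and IL11 at its centre. They are the ligands Lif, Il6 and Il11, the receptors Lifr, Il6ra, Il11ra1 and Il6st, and the response genes Stat3 and Socs3. The genes were taken by name from the 32247 gene symbols measured, and all 9 were found. They were followed across the cells of 1 single-cell library of whole mouse uterus from pregnancy day 7.5, after implantation and during the formation of the decidua. The females were housed to 8 weeks of age and then mated, and their uterus was dissociated with trypsin. The labels give neither the genotype nor the strain, nor how many animals were used. The Prl8a2icre/+ Sun1-GFPLsL/+ and Sun1-GFPLsL/+ samples of the series are not analysed here.

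Of 2775 barcodes, 1812 passed the filters as cells, with 14622717 UMIs (unique molecular identifiers, the tags by which captured transcripts are counted) and a median of 4509.5 UMIs per cell. Clustering without the 9 genes gave 21 clusters, and 19 of them fell by marker genes into 11 groups. The groups were glandular-like epithelium (54 cells, led by Spink1, Prss29 and Prss28), other epithelium (316), decidual-like stroma (153) and undifferentiated-like stroma (412). The other groups were mesothelium-like (89), endothelium-like (65), pericyte-like (35), phagocyte-like (256), NK-like and innate lymphoid (286), T-cell-like (41) and B-cell-like cells (35, with the plasmacytoid dendritic gene Siglech among their leading genes). The names rest on marker genes alone and may differ from those the authors would give, and the ending "-like" is left out from here on. Clusters 15 and 18, with 70 cells together, stayed unnamed. Other epithelium means the epithelial clusters whose best marker set was not the glandular one, and no cluster was named luminal. Among epithelial clusters the luminal markers summed highest in glandular cluster 0, at 2578 CPM, against 62.4 to 735 CPM in clusters 7, 8, 9 and 13. The luminal markers Sprr2f and Ltf were among the 10 leading genes of cluster 0. Stroma was split by its decidual markers, whose summed level was 5560 CPM in cluster 1 and 1917 CPM in cluster 17, the decidual clusters, and 234 CPM and 346 CPM in clusters 4 and 5. All 4 clusters scored highest for the undifferentiated stromal markers, and cluster 17 had no decidual marker among its 10 leading genes, so the main decidual values are also given for each of the 2 decidual clusters. The decidual prolactin genes were nearly absent, with 1 UMI of Prl8a2 and 0 of Prl3c1 in decidual stroma. A level is given in CPM, the UMIs of a gene scaled to counts per 1000000 UMIs of the group, and it is read across groups for 1 gene and not between genes. The intervals given are 95% ones and hold counting error alone (exact Poisson for levels, exact binomial for ratios and Clopper-Pearson for shares). There is 1 library, so no difference has a replicate check and no p-value is given. A gene was called higher or lower between groups at 2-fold or more, with an interval of the ratio that excludes 1 and at least 50 UMIs over both sides.

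Cytokines of this family bind a receptor chain of their own and then share gp130, the product of Il6st, which carries the signal into the cell. LIF uses the chain made from Lifr, IL6 the chain made from Il6ra, and IL11 the chain made from Il11ra1. JAK kinases bound to gp130 then phosphorylate the transcription factor STAT3, and STAT3 turns on Socs3, whose product binds gp130 and damps the signal. In the mouse uterus, LIF from the glands is needed for implantation, and IL11 acting through its receptor is needed for the decidua to form.

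The promoters of the 3 ligands and of Socs3 are shown because they are the ones that held a match to either motif searched. The windows reach from 250 bases before a gene start to 50 bases after it, as given by RefSeq on GRCm38.p6, and each is written along the strand of its gene. All 9 genes had a window there, 12 in all. Capitals mark a match to the AP-1 motif TGANTCA in the ligands and to the STAT motif TTCNNNGAA in Socs3. Each motif reads the same on both strands, and both were chosen after the sequences had been seen. The first Il11 window held neither and is not shown.
Lif, chr11:4257318-4257617, plus strand: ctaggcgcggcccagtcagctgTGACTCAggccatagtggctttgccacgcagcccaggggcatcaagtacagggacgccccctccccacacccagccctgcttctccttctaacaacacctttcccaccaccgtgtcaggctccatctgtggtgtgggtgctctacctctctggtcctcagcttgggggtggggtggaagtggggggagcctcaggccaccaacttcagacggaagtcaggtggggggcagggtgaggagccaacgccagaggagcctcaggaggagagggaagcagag
Il6, chr5:30012864-30013163, plus strand: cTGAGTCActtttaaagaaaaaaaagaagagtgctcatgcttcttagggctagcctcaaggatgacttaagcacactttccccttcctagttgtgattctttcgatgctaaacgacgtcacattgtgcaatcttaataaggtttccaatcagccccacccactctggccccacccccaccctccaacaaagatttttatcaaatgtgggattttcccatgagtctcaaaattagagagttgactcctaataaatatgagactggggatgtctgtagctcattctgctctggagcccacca
Il11, second window, chr7:4778092-4778391, minus strand: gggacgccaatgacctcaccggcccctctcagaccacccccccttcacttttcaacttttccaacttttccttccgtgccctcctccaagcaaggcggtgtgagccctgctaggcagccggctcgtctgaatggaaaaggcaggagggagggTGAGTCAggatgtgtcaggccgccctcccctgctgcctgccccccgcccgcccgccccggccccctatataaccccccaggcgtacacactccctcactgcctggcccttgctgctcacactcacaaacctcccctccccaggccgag
Socs3, chr11:117969317-117969616, minus strand: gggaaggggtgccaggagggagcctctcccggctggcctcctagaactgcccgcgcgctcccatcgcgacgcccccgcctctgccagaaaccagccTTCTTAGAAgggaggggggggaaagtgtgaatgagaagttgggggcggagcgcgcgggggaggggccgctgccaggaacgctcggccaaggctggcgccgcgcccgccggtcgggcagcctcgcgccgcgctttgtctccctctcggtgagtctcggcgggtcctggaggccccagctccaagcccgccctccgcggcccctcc
The AP-1 match lay 228 bases before the start of Lif, 249 bases before that of Il6 and 98 bases before the second start of Il11. No window of the other 6 genes held one, and 7.81% of 32851 windows over all genes did. The STAT match of Socs3 lay 154 bases before its RefSeq start, and 8.30% of all windows held one. The whole Socs3 window lies inside the gene coordinates given for Socs3 below (chr11:117966079-117970047). Those coordinates therefore place its start further upstream, and by them the match lies inside the gene. A match is a description of the letters and not evidence of a bound site.

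**Figure D1:**
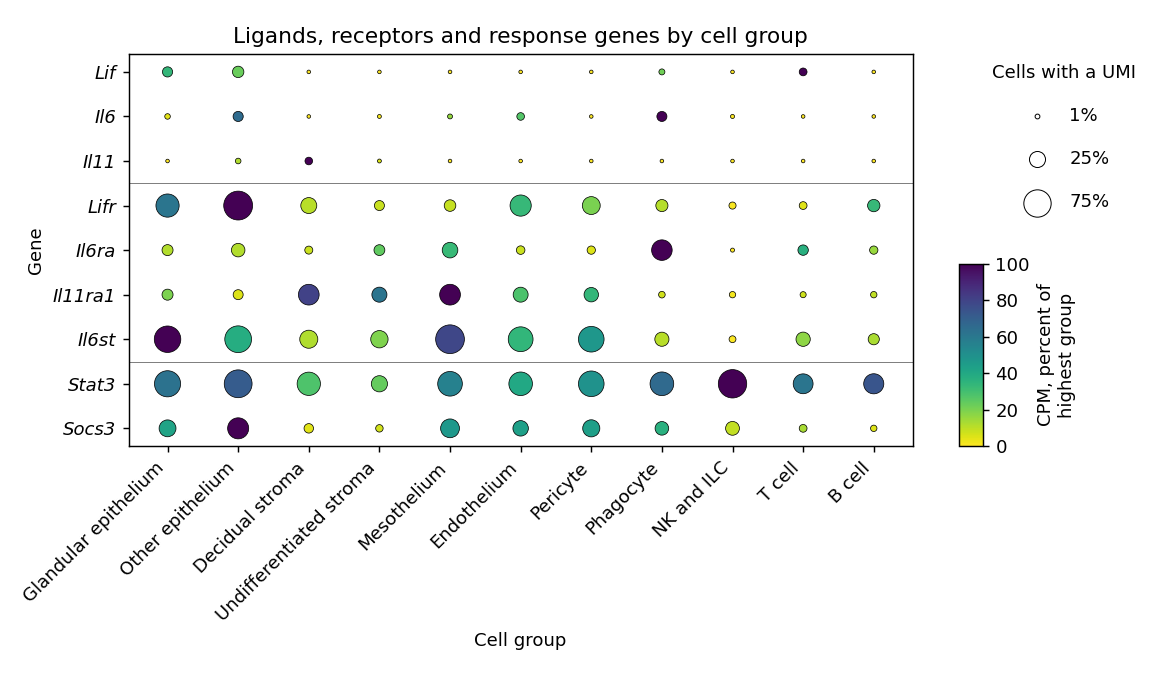
Level of each gene (rows, ligands above receptors above response genes) in the 11 named cell groups (columns). Colour gives CPM as a percent of the gene's highest group and dot area the share of cells with at least 1 UMI. The receptors have their darkest dots in different groups, and the NK column is dark for Stat3 only.

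The ligands were rare. Lif and Il6 were both found mostly in epithelium and phagocytes, and Il11 mostly in decidual stroma. Lif (chr11:4257557-4272514, GRCm38, plus strand), the implantation cytokine of the uterine glands, had 98 UMIs in 51 cells, and 76.5% of them were in epithelium. Its level was 62.0 CPM (24.9 to 128) in T cells, 21.0 CPM (10.1 to 38.6) in glandular epithelium, 14.1 CPM (10.8 to 17.9) in other epithelium and 13.5 CPM (7.69 to 21.8) in phagocytes. The intervals of neighbours in this order overlap. The T cell level rests on 7 UMIs in 2 cells, which had 6 and 1. Lif in T cells was called higher than in all other cells at 9.88-fold (3.86 to 21.2). The ratio was 3.76 when each cell's CPM was averaged in place of summing UMIs. In that comparison 8 of the 9 genes could be compared (Il11 had too few UMIs), 1 was higher and 2, Lifr and Socs3, were lower, and 15.7% of the 12179 genes compared were called either way.

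No Lif UMI was seen in the other 7 groups. The limit that a count of 0 allows, 3 UMIs over a group's total, was 2.04 CPM in decidual stroma, 1.98 CPM in undifferentiated stroma and 0.793 CPM in NK cells. It was 5.81 CPM in endothelium, 6.10 CPM in mesothelium, 11.8 CPM in pericytes and 33.3 CPM in B cells. The B cell count therefore allows a level as high as that of epithelium. With decidual stroma and NK cells set at these limits, Lif was at least 3.65-fold lower in decidual stroma and at least 11.4-fold lower in NK cells than in all other cells. Within epithelium Lif reached 16.8 CPM in cluster 7, 13.3 CPM in cluster 8, 16.8 CPM in cluster 9 and 6.04 CPM in cluster 13. Cluster 9 held 45 of the 65 Lif UMIs of other epithelium. Its cells were the deepest of the library, with a median of 25620 UMIs. Of its 99 cells, 23 had a Lif UMI, and 1 of them had 11. Of the 5 glandular cells with Lif, 2 had 3 UMIs each.

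Most cells with Lif also held transcripts of the LIF receptor. Of the 51 cells, 37 had a UMI of Lifr, 37 of Il6st and 28 of Socs3. In cluster 9 all 23 had Lifr and Il6st, and 20 had Socs3. Lifr was seen in all 99 cells of that cluster, with or without Lif. The 2 T cells with Lif had neither receptor gene.

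Il6 (chr5:30013114-30019981, plus strand), an inflammatory cytokine, was found mostly in phagocytes and in other epithelium. It had 227 UMIs in 59 cells, and the 5 richest cells held 81 of them. Its level was 50.5 CPM (38.5 to 64.9) in phagocytes, 33.1 CPM (28.0 to 38.8) in other epithelium, 13.5 CPM (5.45 to 27.9) in endothelium and 8.13 CPM (2.22 to 20.8) in mesothelium. The intervals of phagocytes and other epithelium touch only narrowly, and both lie above those of endothelium and mesothelium. In mesothelium all 4 UMIs came from 1 cell. Glandular epithelium had 2.10 CPM on 1 UMI, undifferentiated stroma 0.660 CPM on 1 UMI and NK cells 0.264 CPM on 1 UMI. Decidual stroma, pericytes, T cells and B cells had none, with limits of 2.04, 11.8, 26.6 and 33.3 CPM. The B cell limit is not below the level of other epithelium. Against all other cells, and with decidual stroma set at its limit of 3 UMIs, Il6 was at least 8.45-fold lower there.

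Among phagocyte clusters Il6 stood at 104 CPM (66.4 to 154) in cluster 3, 92.1 CPM (63.8 to 129) in cluster 12 and 3.40 CPM (0.411 to 12.3) in cluster 10. Cluster 3 is led by the monocyte and neutrophil genes S100a8, S100a9, Chil3 and Ly6c2, cluster 12 by Il1b and Ccr7, and cluster 10 by the macrophage genes C1qa, C1qb and Mrc1. The dendritic cell gene Xcr1 was also among the leading genes of cluster 10, and C1qa stood at 679 CPM in cluster 10 and 629 CPM in cluster 12. Cluster 10 lay below both of the others in Il6. Among epithelial clusters Il6 stood at 81.2 CPM in cluster 7, 34.4 CPM in cluster 9 and 32.2 CPM in cluster 13, and no UMI was seen in cluster 8, where the limit is 4.98 CPM. In cluster 13 a single cell held 20 of the 32 UMIs, and in cluster 9 a single cell held 28 of 92. Beside this, the 7 monocyte markers summed to 93.2 CPM in cluster 9 (5 detected) and 112 CPM in cluster 7 (4 detected), against 11503 CPM in cluster 3 (all detected). The 9 macrophage markers summed to 18.0 CPM, 28.0 CPM and 977 CPM in these clusters. Cluster 13 had 58.4 CPM of the monocyte markers, and cluster 8, without Il6, had 501 CPM. These sums cover whole clusters, while Il6 was seen in 8 of 76 cells of cluster 7 and 15 of 99 cells of cluster 9. The markers of the cells with Il6 were not tested separately. Of the 59 cells with Il6, 21 had a UMI of Il6ra, 35 of Il6st and 28 of Socs3, and 7 also had Lif. Il6 in phagocytes was called higher than in all other cells at 4.06-fold (2.97 to 5.48), and at 7.24-fold with cluster 9 left out of the other cells.

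Il11 (chr7:4772373-4782859, minus strand), which drives decidual change of the stroma, was the rarest of the 9 genes, with 23 UMIs in 14 cells. Decidual stroma had 10.9 CPM (6.22 to 17.7) on 16 UMIs, other epithelium 1.30 CPM (0.476 to 2.82) on 6 UMIs and undifferentiated stroma 0.660 CPM (0.0167 to 3.68) on 1 UMI. The other 8 groups had none, and the limits of pericytes (11.8 CPM), T cells (26.6 CPM) and B cells (33.3 CPM) lie above the decidual level. Decidual cluster 1, the one led by Tdo2, Dio3 and Bmp2, held 15 of the 16 decidual UMIs in 6 of its 78 cells, with 8, 3, 1, 1, 1 and 1 UMIs. Decidual cluster 17, led by Rbp4 and Cyp26b1, held 1. Il11 stood 20.5-fold (7.96 to 58.8) above all other cells in decidual stroma, and 10.7-fold with the cell of 8 UMIs and the richest Lif and Il6 cells left out. Too few UMIs were counted for a call. Of the 6 cells with Il11 in cluster 1, 5 had Il11ra1 and 3 had Il6st. Their median depth was 29563 UMIs, against 9453.5 UMIs over the cluster, and the part of depth was not tested.

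**Figure D2:**
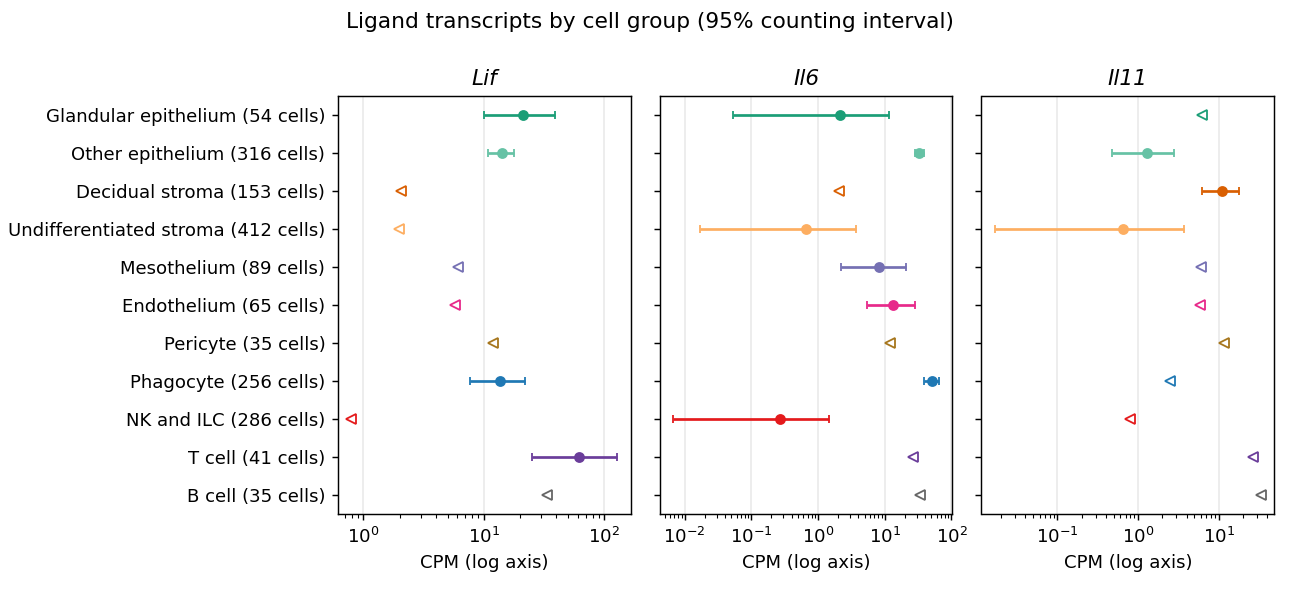
Level of Lif, Il6 and Il11 in each cell group in CPM on a log axis, as points with exact Poisson 95% intervals. Open triangles mark groups with 0 UMIs at the limit that a count of 0 allows. Il11 has a level above its neighbours in decidual stroma at 10.9 CPM, and Lif has none in any stroma.

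Lifr (chr15:7090614-7197489, plus strand), the receptor chain for LIF, was mainly an epithelial transcript. It had 2093 UMIs, 86.5% of them in epithelium. The level was 368 CPM (351 to 386) in other epithelium and 225 CPM (184 to 272) in glandular epithelium, and these intervals do not overlap. Endothelium and B cells followed with 122 CPM each (93.7 to 156 in endothelium and 61.0 to 219 in B cells), and pericytes had 74.6 CPM (44.9 to 117). Phagocytes had 41.2 CPM, decidual stroma 40.1 CPM, mesothelium 32.5 CPM, undifferentiated stroma 31.0 CPM and T cells 17.7 CPM, and the intervals of these 5 groups overlap. NK cells were lowest at 3.44 CPM (1.83 to 5.88).

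Lifr in other epithelium was called 9.44-fold higher (8.45 to 10.6) than in all other cells. In that comparison 5 of 8 of the genes, Lif, Il6, Lifr, Il6st and Socs3, were higher and Il11ra1 was lower, and 38.7% of genes were called. Among epithelial clusters Lifr was 627 CPM (548 to 715) in cluster 7, 420 CPM in cluster 13, 369 CPM in cluster 9 and 128 CPM (101 to 160) in cluster 8, which is led by Lcn2 and Cxcl5. Cluster 8 therefore lay below glandular epithelium. At least 1 UMI of Lifr was seen in 83.9% of other epithelial cells, against 3.85% of NK cells of similar depth (median 7322 UMIs against 6596.5 UMIs). After each cell was thinned to 2000 UMIs these shares were 52.4% of 288 cells and 1.14% of 263 cells.

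Il6ra (chr3:89864059-89913196, minus strand), the receptor chain for IL6, had its highest level in phagocytes, which held 171 of its 367 UMIs. It stood at 144 CPM (123 to 167) in phagocytes, with no overlap with any other group. T cells followed at 53.1 CPM (19.5 to 116), mesothelium at 46.7 CPM (29.6 to 70.1) and undifferentiated stroma at 35.0 CPM (26.2 to 45.8), with overlapping intervals. B cells had 22.2 CPM, glandular epithelium 16.8 CPM, other epithelium 16.4 CPM, decidual stroma and endothelium 11.6 CPM each, and pericytes 7.86 CPM. In 286 NK cells 1 UMI was seen, or 0.264 CPM (0.00669 to 1.47).

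Il6ra in phagocytes was called 9.86-fold higher (7.98 to 12.2) than in all other cells. There 3 of 8 of the genes (Lif, Il6 and Il6ra) were higher and 3 (Lifr, Il11ra1 and Il6st) were lower, and 41.7% of genes were called. Il6ra was 277 CPM (213 to 353) in cluster 3, 119 CPM (86.6 to 160) in cluster 12 and 107 CPM (82.2 to 137) in cluster 10. The monocyte-led cluster 3 was thus above the other phagocyte clusters in Il6ra, while cluster 10 had Il6ra with little Il6. Within epithelium Il6ra ranged from 2.01 CPM in cluster 13 to 61.6 CPM in cluster 7. A UMI of Il6ra was seen in 41.8% of phagocytes, against 0.350% of NK cells, although phagocytes were shallower (median 2533 UMIs).

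Il11ra1 (chr4:41699989-41769474, plus strand), the receptor chain for IL11, was a stromal and mesothelial transcript. It stood at 116 CPM (87.7 to 150) in mesothelium, 93.2 CPM (78.3 to 110) in decidual stroma and 71.3 CPM (58.5 to 86.1) in undifferentiated stroma, and each overlaps the next. Pericytes had 39.3 CPM (18.8 to 72.2), endothelium 32.9 CPM (19.2 to 52.7) and glandular epithelium 23.1 CPM (11.5 to 41.4). B cells, T cells, phagocytes, other epithelium and NK cells had between 2.11 CPM and 11.1 CPM. Il11ra1 was called higher than in all other cells in mesothelium at 4.93-fold (3.66 to 6.55) and in decidual stroma at 4.87-fold (3.92 to 6.01).

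In mesothelium 2 of 8 of the genes, Il11ra1 and Il6st, were higher and Lifr was lower, where 31.2% of genes were called. In decidual stroma Il11ra1 was the 1 gene of 8 that was higher and the other 7 were lower, where 34.1% of genes were called. Il11ra1 was 96.6 CPM in decidual cluster 1 and 86.1 CPM in decidual cluster 17, so both held it. A UMI of Il11ra1 was seen in 42.5% of decidual cells, against 2.80% of NK cells of similar depth. The annotation has near-identical copies of this gene, and in kept cells Il11ra2 and Gm13305 had 0 UMIs and Gm20878 had 2. Il11ra1 overlaps Galt on the same strand, and reads of the overlap could not be told apart here.

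Il6st (chr13:112464070-112510086, plus strand), the shared signalling chain gp130, was found in every group. It stood at 523 CPM (460 to 592) in glandular epithelium and 411 CPM (356 to 471) in mesothelium, with a narrow overlap. Pericytes at 247 CPM (190 to 317), other epithelium at 200 CPM (187 to 213) and endothelium at 178 CPM (144 to 218) overlapped one another. Undifferentiated stroma had 101 CPM (85.6 to 118), T cells 88.5 CPM, B cells 66.6 CPM, decidual stroma 62.6 CPM (50.5 to 76.8) and phagocytes 55.5 CPM. NK cells were again lowest, at 3.17 CPM (1.64 to 5.54).

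Il6st in glandular epithelium was called 4.57-fold higher (3.98 to 5.22) than in all other cells. There 2 of 8 of the genes (Lif at 3.38-fold and Il6st) were higher and Il6 was lower, and 29.3% of genes were called. Epithelial cluster 7 had 412 CPM of Il6st, near the glandular level, and cluster 8 had 108 CPM. After thinning, 56.8% of 44 glandular cells, 56.8% of 81 mesothelial cells and 0.760% of 263 NK cells had a UMI. The secreted glandular product Prss29, a very abundant gene at 77885 CPM in glandular epithelium, was seen at 26.5 to 106 CPM in the other 10 groups. Whether these counts came from free RNA was not tested. The part of free RNA in the lowest levels of the receptors was not tested either.

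**Figure D3:**
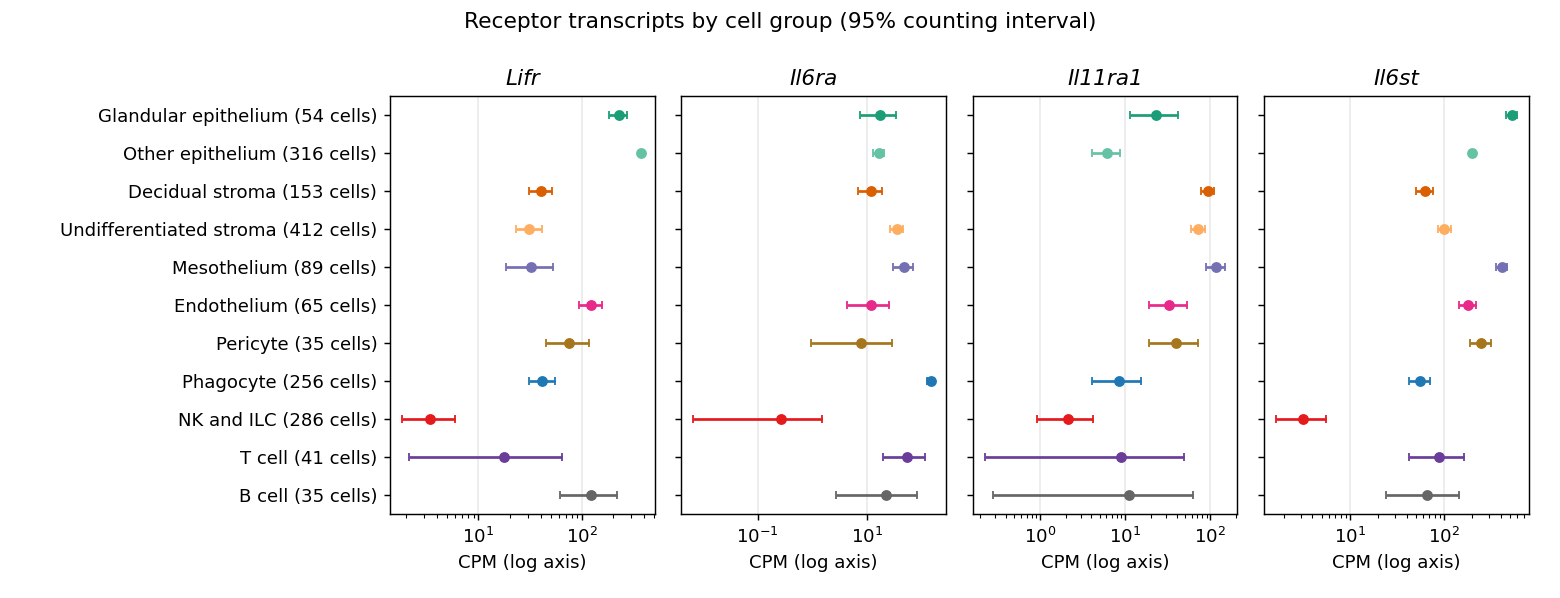
Level of the 4 receptor genes in each cell group in CPM on a log axis, as points with exact Poisson 95% intervals. Lifr peaks in other epithelium at 368 CPM, Il6ra in phagocytes at 144 CPM, Il11ra1 in mesothelium at 116 CPM and Il6st in glandular epithelium at 523 CPM, and all 4 are lowest in NK cells.

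Cells with a UMI of both chains of a receptor were then counted, which counts cells where both were detected and not all cells that express both. Lifr with Il6st was seen in 48.1% (34.3 to 62.2) of glandular cells, 65.8% of other epithelial cells, 35.4% (23.9 to 48.2) of endothelial cells and 9.80% of decidual cells. Il11ra1 with Il6st was seen in 40.4% (30.2 to 51.4) of mesothelial cells, 16.3% (10.9 to 23.2) of decidual cells and 8.25% (5.78 to 11.3) of undifferentiated stromal cells. Il6ra with Il6st was seen in 20.2% of mesothelial cells, 14.2% of other epithelial cells and 11.3% of phagocytes. The LIF receptor pair was thus most often seen in other epithelium, and the IL11 and IL6 receptor pairs in mesothelium. In NK cells 1 cell of 286 had Lifr with Il6st and none had another pair.

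The shares were smaller at equal depth. After thinning, Lifr with Il6st was seen in 9.09% of 44 glandular cells and 21.5% of 288 other epithelial cells. Il11ra1 with Il6st was then seen in 8.64% of mesothelial cells, 1.49% of decidual cells and 2.61% of undifferentiated stromal cells. Il6ra with Il6st was then seen in 9.88% of mesothelial cells, 2.08% of other epithelial cells and 5.63% of phagocytes, so the order of other epithelium and phagocytes turned. The order of decidual over undifferentiated stroma in the unthinned share was therefore not seen at equal depth, where 2 and 8 cells had the pair. Decidual cells had a median of 6839 UMIs, against 3318 UMIs in undifferentiated stroma.

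Stat3 (chr11:100885098-100939540, minus strand), the transcription factor that gp130 activates, was measured in every group within a narrower range than the receptors. NK cells had 392 CPM (372 to 412), B cells 289 CPM (189 to 423), other epithelium 280 CPM (265 to 295), phagocytes 258 CPM (230 to 289) and glandular epithelium 244 CPM (201 to 292). T cells had 239 CPM, mesothelium 222 CPM, pericytes 192 CPM and endothelium 157 CPM. Decidual stroma at 110 CPM (93.3 to 128) and undifferentiated stroma at 93.1 CPM (78.4 to 110) were lowest, with overlapping intervals. The stroma, which held 17 of the 23 Il11 UMIs, had the lowest Stat3 levels of the 11 groups.

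NK cells thus combined the highest group level of Stat3 with the lowest of all 4 receptor genes. The Stat3 interval of B cells holds the NK level. Stat3 in NK cells over all other cells was 1.79-fold (1.67 to 1.91), short of a call. It was 2.05-fold with epithelial cluster 9 left out and 1.31-fold (1.22 to 1.41) at a coarser clustering (Leiden resolution 0.5). Of the 8 genes compared, 0 were higher and 7 were lower in NK cells, where 46.1% of genes were called. Lifr was 55.8-fold lower, Il6st 54.0-fold lower, Il11ra1 16.6-fold lower and Il6ra, on 1 UMI, 128-fold lower (22.8 to 5058). Cluster 2, led by Ifng and Xcl1, had 718 CPM of Stat3 (655 to 787), and cluster 6, led by granzyme genes, had 324 CPM (304 to 344). Cluster 6 lay below phagocyte cluster 3 at 449 CPM (367 to 545) and epithelial cluster 7 at 443 CPM (376 to 517). Epithelial cluster 9 had 307 CPM (286 to 328), which overlaps cluster 6. Il6st was 3.06 CPM in cluster 2 and 3.20 CPM in cluster 6, so the difference in Stat3 between them stood beside like receptor levels. Cluster 2 had Itgax, a dendritic cell marker, and no listed NK marker among its 10 leading genes. The shallow unnamed cluster 18 had 1088 CPM of Stat3 (820 to 1417) on 55 UMIs. Stat3 overlaps Stat5a on the opposite strand.

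Socs3 (chr11:117966079-117970047, minus strand), the feedback inhibitor that STAT3 induces, was highest in other epithelium. It stood at 205 CPM (192 to 218) in other epithelium, above every other group. Mesothelium at 95.5 CPM, pericytes at 90.3 CPM, endothelium at 89.0 CPM, glandular epithelium at 86.1 CPM (61.8 to 117) and phagocytes at 74.8 CPM (60.1 to 92.1) overlapped one another. T cells had 26.6 CPM, NK cells 19.0 CPM, undifferentiated stroma 13.9 CPM (8.58 to 21.2), B cells 11.1 CPM and decidual stroma 9.53 CPM (5.21 to 16.0). Socs3 in decidual stroma was 10.3-fold lower (6.13 to 18.9) than in all other cells.

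Cluster 9 held most of the epithelial Socs3. It had 282 CPM (262 to 303), against 145 CPM in cluster 13, 112 CPM in cluster 7 and 18.3 CPM (9.11 to 32.7) in cluster 8. Socs3 in other epithelium was called 5.69-fold higher (5.04 to 6.45) than in all other cells, and 2.77-fold higher (2.32 to 3.31) with cluster 9 left out. Cluster 8 was lowest of the epithelial clusters for Lifr, Il6st, Stat3 and Socs3 alike. In NK cells Socs3 was 84.3 CPM (63.5 to 110) in cluster 2 and 5.43 CPM (3.16 to 8.70) in cluster 6. Cluster 2 had this level with Il6st near 0.

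Socs3 levels were set beside those of genes that respond quickly to stress. A list of 15 early response and heat shock genes summed to 16680 CPM in cluster 9 and 33541 CPM in cluster 3, which had 169 CPM of Socs3. It summed to 1701 CPM in decidual cluster 1, 2484 CPM in decidual cluster 17 and 2408 CPM in NK cluster 6. These clusters had 11.1, 6.30 and 5.43 CPM of Socs3. By the correlation of log2(CPM + 5) over the 11 groups, the genes most like Socs3 were Atf3 (Pearson r of 0.884) and Fos (0.883), both early response transcription factors, and Pqlc1 (0.868). The match was not complete. Clusters 8 and 10 had 12506 and 15299 CPM of the list with 18.3 and 23.8 CPM of Socs3. T cells and B cells had 12640 and 12025 CPM of the list with 26.6 and 11.1 CPM of Socs3. Mesothelium had 5353 CPM of the list with 95.5 CPM of Socs3. The part of trypsin dissociation in the Socs3 levels was not tested.

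**Figure D4:**
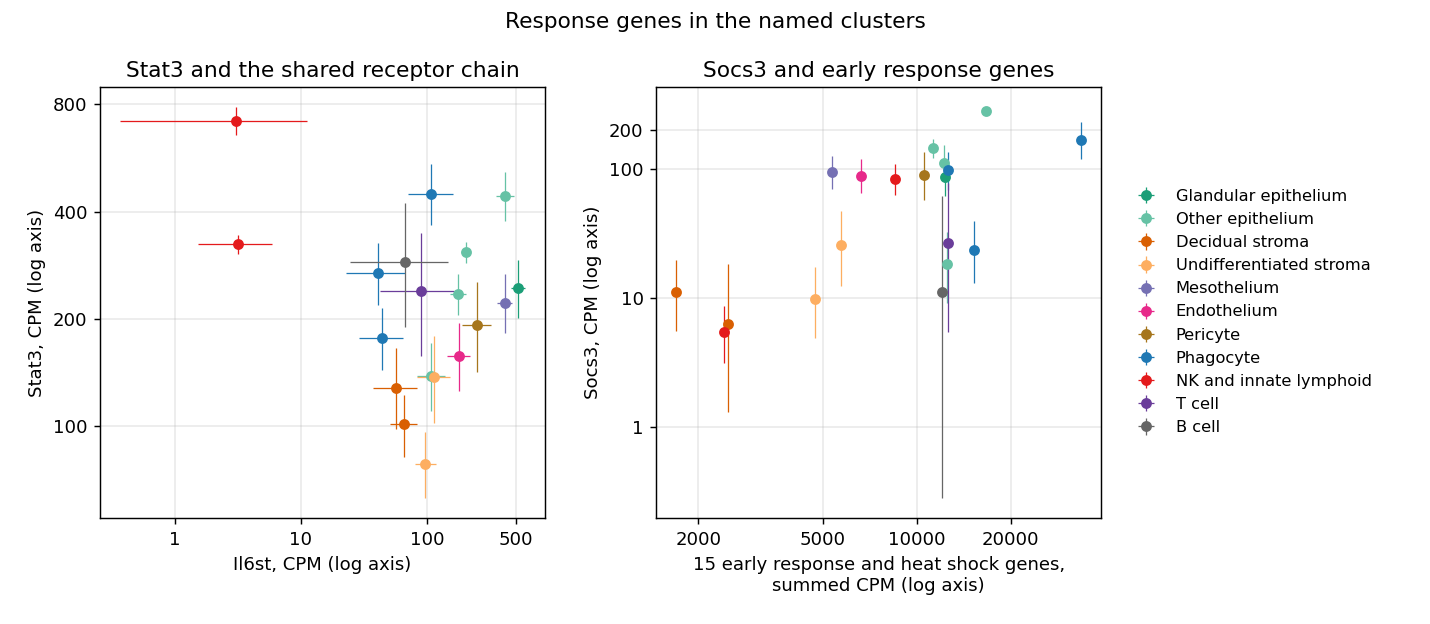
Left, Stat3 against Il6st in the 19 named clusters, and right, Socs3 against the summed level of 15 early response and heat shock genes, all in CPM on log axes, with exact Poisson 95% intervals for the single genes. Both NK clusters lie at the far left with 718 and 324 CPM of Stat3, and on the right the decidual clusters and NK cluster 6 lie leftmost, with 5.43 to 11.1 CPM of Socs3.

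Decidual stroma was then set against undifferentiated stroma. Of the 9 genes, 5 had enough UMIs, 0 were higher and 1 was lower, where 26.7% of 7469 genes were called. Il6ra was that gene, with 11.6 CPM in decidual and 35.0 CPM in undifferentiated stroma, 3.02-fold lower (1.72 to 5.57). It was lower in decidual cluster 1 at 11.1 CPM and in decidual cluster 17 at 12.6 CPM alike. The median log2 ratio was 0.23 over the 5 genes and -0.31 over all genes compared, so levels are best read against that shift. After ratios were divided by the median, Il6ra was still called, at a ratio of 0.410 (0.222 to 0.719).

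The other 4 genes were not called. Il11ra1 had a ratio of 1.31 (1.01 to 1.70), Lifr 1.29 (0.867 to 1.94), Stat3 1.18 (0.933 to 1.49) and Il6st 0.620 (0.473 to 0.808). Il6st was called lower, at 0.464 (0.317 to 0.663), when cells over 10% mitochondrial UMIs were left out, which kept 55 decidual cells. Decidual cells had a median mitochondrial share of 11.6%, against 4.28% in undifferentiated stroma, and whether that gap bears on the ratio was not tested. Lifr differed between the decidual clusters, with 73.5 CPM (51.2 to 102) in cluster 17 and 24.2 CPM (15.5 to 35.9) in cluster 1. Only cluster 17 was called higher than undifferentiated stroma, at 2.37-fold (1.48 to 3.75), and the clusters' own intervals do not overlap. Il11, with 16 UMIs in decidual and 1 in undifferentiated stroma, had a ratio of 16.5 (2.56 to 692) and too few UMIs for a call. Socs3, at 9.53 CPM in decidual and 13.9 CPM in undifferentiated stroma, also had too few.

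The rest of the pathway was compared between the stromal groups as well. Of 2 other receptors compared, Osmr, the oncostatin M receptor that also pairs with gp130, was higher, with 27.2 CPM in decidual and 7.92 CPM in undifferentiated stroma (3.44-fold). Osmr was 12.1 CPM on 12 UMIs in decidual cluster 1 and 58.8 CPM on 28 UMIs in decidual cluster 17. Neither cluster alone had enough Osmr UMIs for a call. Il31ra, the IL31 receptor that pairs with Osmr, was lower, with 4.08 CPM in decidual and 83.2 CPM in undifferentiated stroma (20.4-fold lower). Of the other ligands 1 was compared, Clcf1, a ligand of the CNTF receptor, and it was 3.36-fold lower. Of 7 kinases, STATs and adaptors compared, 0 were higher and 1, the adaptor Gab1, was lower, with 13.6 CPM against 33.0 CPM.

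Of 12 inhibitors compared in stroma, 0 were higher and 3 were lower. These were Socs2 at 78.3 CPM against 562 CPM (7.19-fold lower), Socs5 (2.52-fold lower) and Cish (2.25-fold lower), all of the SOCS family. Of 13 genes linked to STAT3 as targets, 2 were higher and 2 lower. Timp1, an inhibitor of matrix proteases, was 6.91-fold higher and the receptor chain Il4ra 2.18-fold higher, while the transcription factors Cebpd and Myc were 9.60-fold and 2.58-fold lower. Ptgs2, the inducible prostaglandin synthase, was the 1 gene compared of the list linked to LIF in the uterus, and it was higher, with 71.4 CPM against 9.90 CPM (7.21-fold). The early response list had 0 of 15 higher and 10 lower, led by Hspa1b (4.24-fold lower) and Btg2 (4.18-fold lower), with a sum of 1955 CPM in decidual and 4975 CPM in undifferentiated stroma. After ratios were divided by the median, Gab1 and Cish were no longer called, 8 early response genes were, and Hif1a became called as higher.

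Glandular epithelium was set against the other epithelium. Of the 9 genes, 7 had enough UMIs, 1 was higher and 2 were lower, where 21.8% of 8255 genes were called. Il6st was higher, with 523 CPM in glandular and 200 CPM in other epithelium (2.62-fold, 2.27 to 3.02). Il6 was lower, with 2.10 CPM against 33.1 CPM, a ratio of 0.0635 (0.00160 to 0.359) on 1 glandular UMI. Socs3 was lower, with 86.1 CPM against 205 CPM, a ratio of 0.420 (0.300 to 0.574). Without cluster 9 the Socs3 ratio was 0.863 (0.600 to 1.21) and not called, while Il6st stayed at 2.64 and Il6 at 0.0673.

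Lif had 21.0 CPM in glandular and 14.1 CPM in other epithelium, a ratio of 1.49 (0.685 to 2.93) that was not called. It was 2.05 without cluster 9 and 5.92 when each cell's CPM was averaged in place of summing UMIs. Lifr had a ratio of 0.610 (0.497 to 0.742), Stat3 0.872 (0.715 to 1.05) and Il6ra 1.02 (0.426 to 2.12), none of them called. Il11ra1, with 11 glandular UMIs and 28 in other epithelium, had too few UMIs for a call, at a ratio of 3.82 (1.71 to 7.91). Il11 had 0 glandular UMIs and 6 in other epithelium. The median log2 ratio was -0.20 over the 7 genes and -0.16 over all genes compared, and the calls were the same after ratios were divided by the median.

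**Figure D5:**
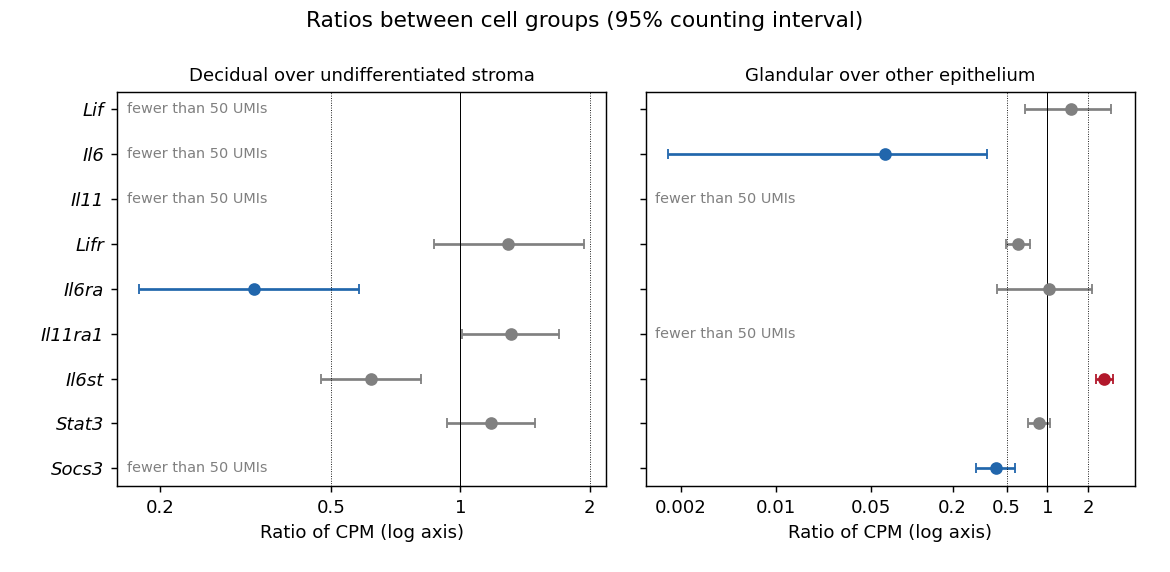
Ratio of CPM of each gene, decidual over undifferentiated stroma (left) and glandular over other epithelium (right), on log axes with exact 95% intervals and dotted lines at 2-fold. Red marks genes called higher (Il6st at 2.62-fold in glands), blue those called lower and grey those not called.

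Among the rest of the pathway, all 10 kinases, STATs and adaptors were compared in epithelium and 0 were called. Jak2, a kinase of the receptor complex, had 462 CPM in glandular and 475 CPM in other epithelium, with at most 257 CPM in any other group. Osmr had 81.9 CPM and 117 CPM and was not called. Clcf1 was 13.6-fold lower (3.74 to 113) in glands on 2 UMIs. Of 12 inhibitors compared, the phosphatase Ptpn1 (5.40-fold) and Socs5 (3.32-fold) were higher, and Socs2 was 2.31-fold lower.

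Of 17 genes linked to STAT3 as targets, 1 was higher and 9 were lower in glands, with a median log2 ratio of -1.08 against -0.16 over all genes. The higher one was Hp, which encodes the plasma protein haptoglobin, with 420 CPM in glandular and 1.73 CPM in other epithelium (243-fold, on 200 and 8 UMIs). Among the lower were the cyclin Ccnd1, with 73.5 CPM against 386 CPM, and Lcn2, with 75.6 CPM against 349 CPM. The Lcn2 difference rests mainly on cluster 8, which held 1308 of the 1613 Lcn2 UMIs of other epithelium, at 2171 CPM. Clusters 7, 9 and 13 had 104, 89.5 and 29.2 CPM of Lcn2, so cluster 13 lay below the glandular level. After ratios were divided by the median, 7 of the 17 target genes were lower. Of 3 genes compared from the list linked to LIF in the uterus, the transcription factor Msx1 was 3.66-fold higher in glands. The growth factor Hbegf was 3.82-fold lower and Ptgs2, on 2 glandular UMIs, 33.7-fold lower (9.29 to 279). The early response list had 0 of 15 higher and 3 lower (Atf3, Dnajb1 and Dusp1), with a sum of 12303 CPM in glandular and 14639 CPM in other epithelium.

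Among the other ligands, Ebi3, which encodes a subunit of IL27, had 83 UMIs, 81 of them in phagocytes at 68.1 CPM (54.1 to 84.7). Osm, the gene of oncostatin M, had 132 UMIs, 114 of them in phagocytes at 95.9 CPM (79.1 to 115), and at most 17.7 CPM in any other group. Among phagocyte clusters Osm stood at 354 CPM on 82 UMIs in cluster 3, 46.1 CPM in cluster 12 and 25.5 CPM in cluster 10. Phagocytes had 0.841 CPM of the receptor gene Osmr, with Osmr highest in other epithelium at 117 CPM.

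For each of the 7 genes with at least 100 UMIs, the 3 genes of most similar level over the 11 groups were listed, by Pearson's r of log2(CPM + 5) among 10634 genes. The 11 points share a library and differ in depth. Most like Il6 were Tbc1d9 (0.915), Ch25h (0.910) and Gprc5a (0.903). Most like Lifr were Rgl3 (0.929), Pik3c2a (0.898) and Gclm (0.882), and most like Il6ra were Cnpy3 (0.833), Fbxo11 (0.830) and Gm2a (0.826). Most like Il11ra1 were Mxra8, Bmp1 and Cdkn1c, at 0.939 to 0.940. Most like Il6st were Arhgap5 (0.925), Nck2 (0.885) and Tmem87b (0.871), and most like Stat3 were Dusp5 (0.853), Tuba4a (0.836) and Sorl1 (0.832). None of the 9 genes was among the 3 most like another over the groups. Over the 19 named clusters Il6 was among those of Socs3, at 0.736. The lists depend on the points used. Over the clusters none of the 3 genes stayed for Il6, for Il6ra or for Il6st. Only Rgl3 stayed for Lifr, only Mxra8 for Il11ra1 and only Dusp5 for Stat3, while Atf3 and Fos stayed for Socs3.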

How the data were processed

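The data are 1 droplet library (10x Genomics 3' kit v3.1, per the labels' protocols) of UMI counts per gene and barcode. Per the file headers, the authors' count matrix was written by Cell Ranger 4.0.0. The submitters' processing notes name the build mm10. No label or header names the annotation release used for counting. The barcodes had already been called as cells, and every one holds at least 500 UMIs, so free RNA could not be measured from empty droplets.

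Features of the same symbol (40 of 32287) were summed. Barcodes were kept where 500 genes or more were detected and mitochondrial UMIs made up no more than 20% (1825), and Scrublet, as built into scanpy 1.11.5, marked 13 of them (0.712%) as doublets at an expected rate of 5%, which were removed. Counts were scaled to 10000 per cell, and 2000 variable genes, 30 principal components, 15 neighbours and the Leiden method at resolution 1 gave the clusters. The 9 genes and the genes of 7 pathway lists (80 genes) were left out of that step. Clusters were named from 172 markers in 24 sets. The members, markers and lists were chosen with earlier results of these data known.

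CPM come from UMIs summed over a group. Ratios carry an exact conditional binomial interval. Shares of cells were also taken after thinning each cell to 2000 UMIs, leaving out shallower cells. The "all other cells" of a comparison include the unnamed clusters. Genes named outside the 9 are, of each list and comparison, the called genes with the 2 highest and the 2 lowest ratios, the 3 genes most like each of the 9, or markers. Other genes named (Cish, Dusp1, Ebi3, Jak2, Osm, Osmr in epithelium, and those whose call changed on scaling) were chosen after their values were seen, as were the motifs and the cluster values. Of the list genes whose call changed on scaling, not all are reported here. The calculations were tested on simulated data. They used Python 3.11.15, numpy 2.4.6, scipy 1.17.1, pandas 2.3.3 and matplotlib 3.10.9. Promoter sequences are from RefSeq, build GRCm38.p6.

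Cells of 1 library are not replicates, and how many animals gave it is not stated, so the spread between animals is unknown and no test was run. PCR duplicates are removed by the UMIs, while the intervals hold counting error alone. The 2 other samples of the series were not used here. Alternatives varied the cell filters, the doublets, the clustering, the summing of cells, the count minimum, the fold and the scaling.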

Additional observations from a re-analysis of the deposited data

Results flagged for a closer look

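The 963 barcodes left out by the cell filters, with 2226077 UMIs (13.2% of all), also held transcripts of all 9 genes, and each is listed because this signal lies outside the cells compared. These barcodes had fewer than 500 genes, more than 20% mitochondrial UMIs or a doublet mark. The ligands had 37 Lif UMIs in the left-out barcodes (16.6 CPM, against 6.70 CPM in kept cells), 37 Il6 UMIs (16.6 CPM against 15.5 CPM) and 9 Il11 UMIs (4.04 CPM against 1.57 CPM). The receptors had 484 Lifr UMIs (217 CPM against 143 CPM), 86 Il6ra UMIs (38.6 CPM against 25.1 CPM), 104 Il11ra1 UMIs (46.7 CPM against 26.6 CPM) and 331 Il6st UMIs (149 CPM against 128 CPM). Stat3 had 572 UMIs (257 CPM against 264 CPM) and Socs3 had 101 UMIs (45.4 CPM against 89.4 CPM). The mix of cell types among the left-out barcodes was not tested.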

How the results depend on the processing

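No paired analysis was possible because there is 1 library, and for the same reason no replicate could be left out. For the 9 genes, 21 ratios (each gene in its highest group over all other cells, and those compared between the stromal and the epithelial groups) were recomputed under 11 settings, and the other ratios were not. Of the settings, 3 were chosen after seeing the data (the deepest epithelial cluster left out, the richest cell of each ligand left out, and ratios divided by their median). Of 220 recomputed ratios, 204 stayed within the interval first given, 16 lay outside it and 0 of those called changed direction. Of those not called, 5 crossed 1: in glandular over other epithelium Il6ra (0.750, 0.867 and 0.885 under other cell filters) and Lif (0.851 at no more than 10% mitochondrial UMIs), and in decidual over undifferentiated stroma Stat3 (0.999 at the same limit). The calls lost were 2, both of Socs3 in glandular over other epithelium, with each cell's CPM averaged (0.714) and without the deepest cluster (0.863). The calls gained were 3, Il6st in decidual over undifferentiated stroma at no more than 10% mitochondrial UMIs (0.464), and Stat3 in NK cells with each cell's CPM averaged (2.10) or without the deepest cluster (2.05). With at most 10% mitochondrial UMIs, 2 of the 9 genes were thus called between the stromal groups in place of 1. Where each cell's CPM was averaged, a call joined the averaged ratio to the interval of the summed counts, since no interval of the averaged ratio was computed. Over all genes, 1997 were called between the stromal groups, 1255 with a minimum of 100 UMIs and 3543 at 1.5-fold. Of the calls, 32.0% were higher in decidual stroma, and 56.1% after ratios were divided by their median. The T cell group did not form at resolution 0.5 or with no gene minimum, so Lif has no value there. Lif, Il6 and Il11 rest on few cells.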
